A study of Nothobranchius furzeri with 10 samples.

Results

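The genes described here are 191 of the 26739 genes counted in 10 brain libraries of the turquoise killifish Nothobranchius furzeri, an annual fish with a short life that is used to study ageing. They were selected on their own measured CPM, for being low together in the libraries titled JG81, JG83 and JG84. A member had at least 1 count in every library, a mean of at least 5 and under 1000 CPM (counts per 1000000 counts of the library), and a CPM in each of these 3 libraries of at most 0.5 times its own median over the 10 libraries. The filters on level alone left 14350 genes, of which the 191 members are 1.33%. The choice used the measured values of these same libraries, so the low level in JG81, JG83 and JG84 is how the members were found and is not a result.

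All 10 libraries carry the same labels. They were made from total RNA of the brains of male GRZ fish, an inbred strain, at 10 weeks of age, after exercise in a swim tunnel, where fish have to swim against flowing water. There is 1 group and no untreated fish among these samples, so nothing here separates exercise from its absence. The labels do not say whether the libraries came from separate animals, so any p-value here refers to differences between libraries, which may be technical. Totals ran from 22958779 counts in JG74 to 28223263 in JG80, and 3 counts in a library correspond to 0.106 to 0.131 CPM.

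A library of whole brain RNA sums the transcripts of neurons, glia, vessels and every other cell in the dissected tissue. Genes whose levels go up and down together over such libraries are commonly called a co-expression module. In bulk RNA, fewer cells of a type and less RNA per cell cannot be told apart. The gene identifiers are not paired with names in the sources used here, so the roles of the members, and the brain label itself, were not checked against marker genes. At most 2 identifiers are printed for each kind of pattern, and other members are given by their rank.

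Most members were genes of low to moderate abundance. Their mean level had a median of 16.1 CPM, with the middle 50% between 8.19 and 26.2 CPM, against a median of 30.3 CPM for all 14350 genes that passed the same filters. Between 5 and 10 CPM lay 61 members, between 10 and 30 CPM 88, between 30 and 100 CPM 35, and at 100 CPM or more 7. Members made up 2.63% of the filtered genes between 5 and 10 CPM and 0.296% of those at 100 CPM or more. Per length, the median level was 5.74 RPKM (counts per kilobase of gene and per 1000000 counts), against 11.4 RPKM for all filtered genes. The members' lengths had a median of 3064 bp, with the middle 50% from 1924 to 4612 bp, close to the 3049 bp of all filtered genes.

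In the low libraries the members were at about 0.3 times their own median. The median ratio over the 191 members was 0.293 in JG81, 0.330 in JG83 and 0.318 in JG84, while over all filtered genes it was 1.02 in each of the 3. Ratios at or below 0.25 occurred in 72 members in JG81, 55 in JG83 and 59 in JG84, and ratios at or below 0.1 in 14, 10 and 11 members. All 3 ratios were at or below 0.4 in 125 members, at or below 0.25 in 40, and at or below 0.1 in 6. Together the members took 0.178% of the counts in JG81, 0.201% in JG83 and 0.184% in JG84. That share was 0.335% in JG75, 0.549% in JG78, 0.669% in JG80, 0.683% in JG82, 0.831% in JG74, 0.876% in JG77 and 0.890% in JG76.

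**Figure D1:**
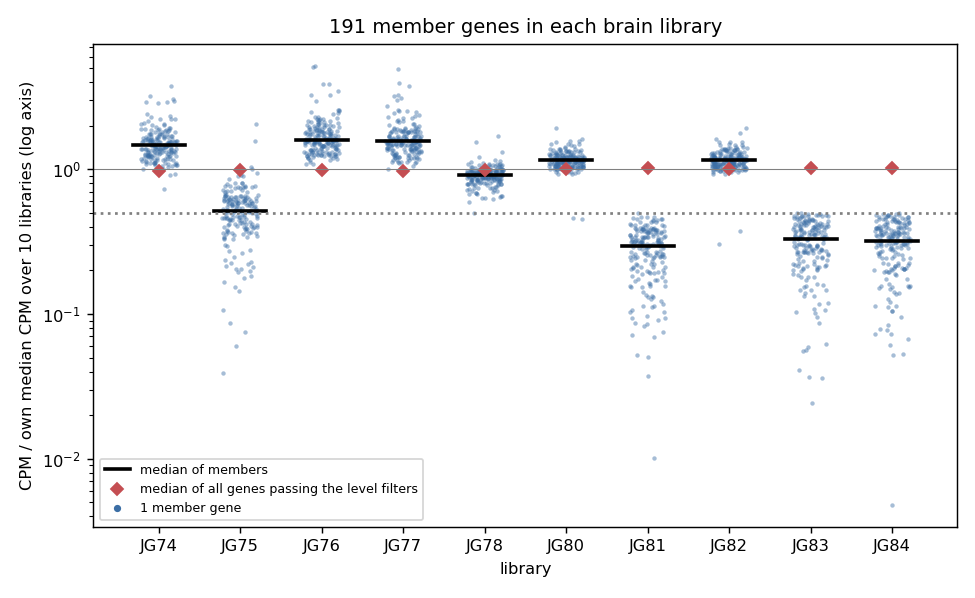
CPM of each member divided by its own median over the 10 libraries (log axis), 1 point per gene and library, with the median of the 191 members as a black bar and the median of all 14350 filtered genes as a red diamond. The dotted line marks 0.5. The members' medians lie at 0.293 to 0.330 in JG81, JG83 and JG84 and at 0.515 in JG75, while the diamonds stay near 1 in every library.

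The other 7 libraries did not sit at one level. Members' median ratios were 1.60 in JG76, 1.57 in JG77, 1.46 in JG74, 1.15 in JG80, 1.15 in JG82, 0.908 in JG78 and 0.515 in JG75. Since 3 libraries are low by choice and JG75 is low in most members, the median of 10 falls among the remaining 6, and values on either side of 1 there follow in part from how the ratio is made. Within a gene the order of the libraries does not depend on that denominator, though whether the gene is a member does. JG76 was the highest library in 116 members, JG77 in 52 and JG74 in 18. Over all filtered genes JG76 was the highest in 7.16%. Among the 7 libraries other than JG81, JG83 and JG84, JG76 was the highest in 60.7% of members, against 8.66% of the filtered genes. For JG77 this was 27.2% against 10.2%. JG74 was the highest of the 7 less often in members, 9.42%, than in the filtered genes, 17.4%. In 155 members JG74, JG76 and JG77 were the 3 highest libraries, against 7.10% of the filtered genes. The rule keeps JG81, JG83 and JG84 from the top in members only, so part of this gap follows from the choice.

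Some neighbours in this order lay close together. JG82 was above JG80 in 101 of 191 members, against 47.7% of the filtered genes, and JG84 was above JG83 in 102, against 49.4%. JG76 was above JG77 in 129 members, against 52.3% of the filtered genes, and the median ratio of the pair over all members was 1.04. Other steps were shared by most members. JG78 was above JG75 in 188 members, against 44.3% of the filtered genes, with a median ratio of 1.77 over all members. JG80 was above JG78 in 174, against 59.8%, with a median ratio of 1.28. Within the low libraries, JG81 was the lowest of the 10 in 117 members, JG84 in 38 and JG83 in 34, and JG75 was the lowest in the remaining 2. JG83 was above JG81 in 148 members, against 52.8% of the filtered genes, and JG84 was above JG81 in 137, against 51.3%. The rule used the values of JG81, JG83 and JG84, so their order is a description.

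JG75 was the next lowest library. It ranked next above the 3 lowest in 170 members (89.0%), a rank it held in 17.2% of the filtered genes. In 17 members it lay among the 3 lowest, and in 4 it ranked higher still. Its ratio was at or below 0.5 in 89 members (46.6%), against 0.948% of the filtered genes, and at or below 0.25 in 21. A further 99 members lay between 0.5 and 1 in JG75, and 3 were at or above their own median. Among the 7 libraries for which no low value was asked, JG75 was the lowest in 187 of 191 members (97.9%), while it was the lowest of the 7 in 13.8% of the filtered genes. It still held more of the members' RNA than the low libraries, with a median of 1.90 times the CPM of JG81, 1.69 times that of JG83 and 1.66 times that of JG84.

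Members that were lower in JG81, JG83 and JG84 were also lower in JG75. The members were ordered by the highest of their 3 low ratios and divided into 3 parts of 64, 63 and 64 genes. In the deepest part, with that ratio up to 0.303, the median ratio in JG75 was 0.374, and 54 of 64 members were at or below 0.5 there. In the middle part it was 0.542, and in the shallowest part, from 0.402 upwards, it was 0.625, with 11 of 64 at or below 0.5. The deepest part also reached higher in JG76, at a median of 1.85, against 1.59 and 1.49 in the others. Across the 191 members the log2 ratio in JG75 had a Pearson r of 0.803 with that in JG83, 0.778 with JG84 and 0.680 with JG81. These are descriptions: the points share each gene's median as denominator and come from the same libraries.

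**Figure D2:**
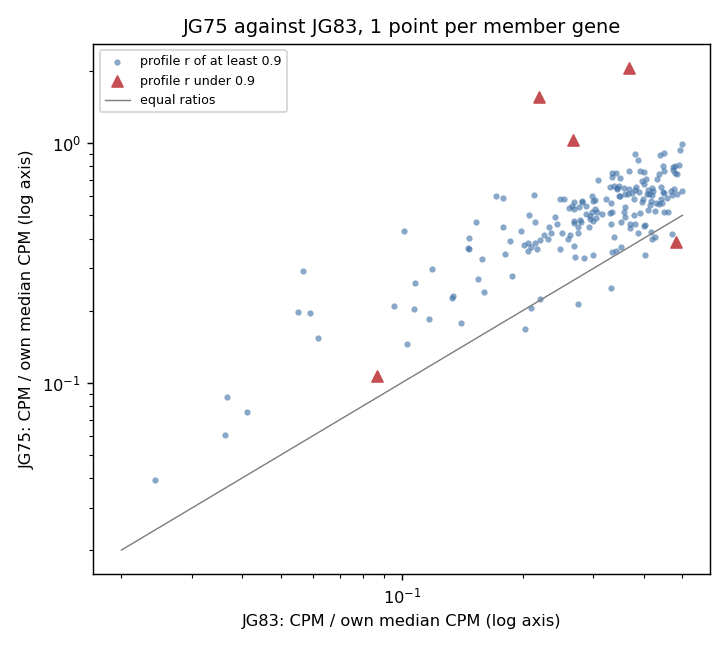
Ratio to the own median in JG75 (vertical) against JG83 (horizontal), both on log axes, with 1 point per member. Most points lie above the line of equal ratios, 182 of 191, and the points run along it. The 5 red triangles are members with a correlation under 0.9 to the profile of the other members, and 3 of them are at or above 1 in JG75.

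Among the members, which all lie at or below 0.5 by choice, depth of the drop was nearly unrelated to length and to level. The share of filtered genes that were members did fall with level, as given above. Across members the Spearman correlation of the highest low ratio was 0.0128 with gene length, 0.0965 with mean CPM and 0.129 with mean RPKM. The median length was 2773 bp in the deepest part, 3447 bp in the middle and 3082 bp in the shallowest.

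Each member was also placed on a linear scale from its CPM in JG81 (0%) to its CPM in JG76 (100%). This scale shows the graded series of libraries without dividing by the median. Its ends are the libraries with the lowest and the highest median ratio in the members. JG81, JG83 and JG84 are low by choice, so the place of JG83 and JG84 near 0% follows from it. JG84 lay at a median of 2.36% and JG83 at 2.56%. JG75 followed at 17.5%, with the middle 50% of members from 8.58 to 27.1%. JG78 lay at 47.9%, JG80 at 64.0%, JG82 at 64.4%, JG74 at 86.1% and JG77 at 95.5%. For JG80, JG82, JG74 and JG77 the medians of the deepest, middle and shallowest members differed by under 4 percentage points. For JG75 they were 11.6%, 18.2% and 23.9%, and for JG78 42.1%, 47.9% and 51.7%.

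**Figure D3:**
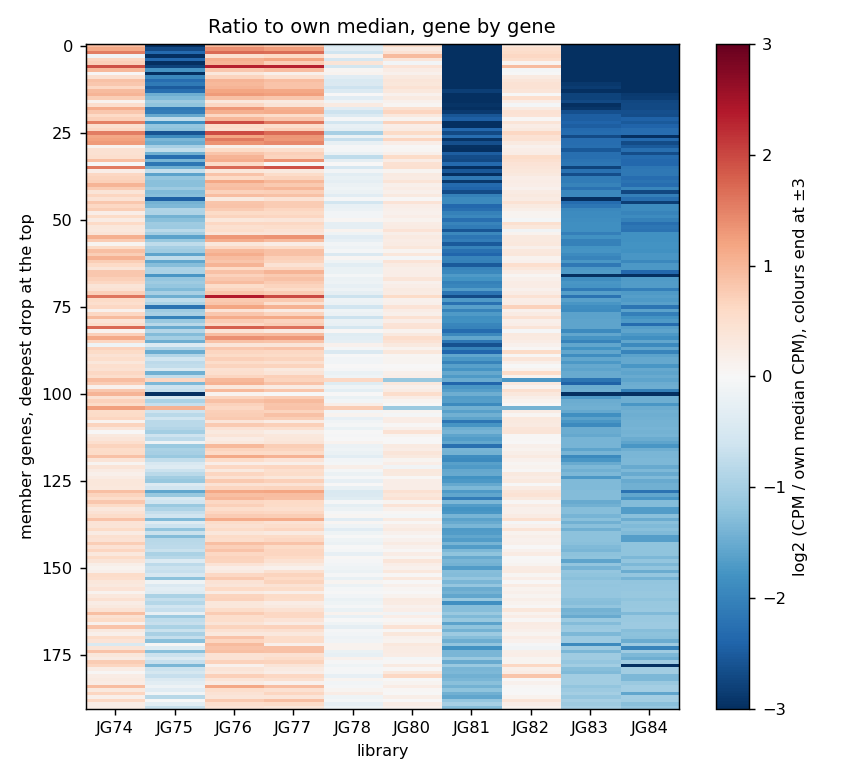
Log2 ratio of each member to its own median in each library, with members in rows from the deepest drop at the top to the shallowest at the bottom (blue below, red above the median, colours ending at ±3). The columns JG81, JG83 and JG84 are blue throughout, JG75 is blue in nearly every row and darkest at the top, and 2 rows near the middle are blue in JG80 and JG82 and red in JG75 and JG78.

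The deepest member was Nfu_g_1_009336, of 2941 bp. It had 2 counts in JG81, 8 in JG83 and 1 in JG84, and 15 in JG75. The other counts were 168 in JG78, 283 in JG82, 343 in JG80, 341 in JG77, 359 in JG74 and 429 in JG76. In JG84 this is 0.0394 CPM, with an exact 95% Poisson interval from 0.000996 to 0.219, and in JG76 16.4 CPM, with an interval from 14.9 to 18.0. These intervals cover counting error only. The intervals in JG81, JG83 and JG84 lay below those of the 6 libraries other than JG75. That of JG83 overlapped JG75, whose interval ran from 0.344 to 1.01 CPM. The gene was picked for its depth in JG81, JG83 and JG84, so the separation follows from the choice and is a description. Its largest low ratio was 0.0411.

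Nfu_g_1_011713, of 2980 bp, came next, with its 3 low ratios between 0.0525 and 0.0720. Its levels were 0.540 CPM in JG81, 0.463 CPM in JG83 and 0.394 CPM in JG84, from 13, 11 and 10 counts. JG75 held 1.15 CPM, JG78 5.89, JG80 9.11, JG82 10.6, JG74 16.6, JG77 17.9 and JG76 19.2 CPM. Apart from the order among JG81, JG83 and JG84, its libraries ran as the members' medians did. Its profile had r = 0.995 with the mean profile of the other members. Such low counts were rare among members: 7 had under 10 counts in one of the 3 low libraries and 22 under 30, and the median count of a member in those libraries was 112.

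The most abundant member, by CPM and per length, was unlike most of the others in JG84. It averaged 408 ± 232 CPM (SD, n = 10), or 269 RPKM over a length of 1518 bp. Its lowest level was 47.4 CPM in JG84, followed by 174 CPM in JG75, 210 in JG81 and 218 in JG83. The other levels were 413 CPM in JG78, 490 in JG76, 545 in JG80, 591 in JG77, 689 in JG82 and 702 in JG74. JG84 was thus more than 3-fold below the next library, and JG75 was below JG81 and JG83. The second most abundant member, at 294 ± 132 CPM (SD, n = 10), kept the common order at the bottom, with 112 CPM in JG81, 121 in JG84, 132 in JG83 and 248 in JG75. Its remaining libraries lay between 326 and 444 CPM.

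**Figure D4:**
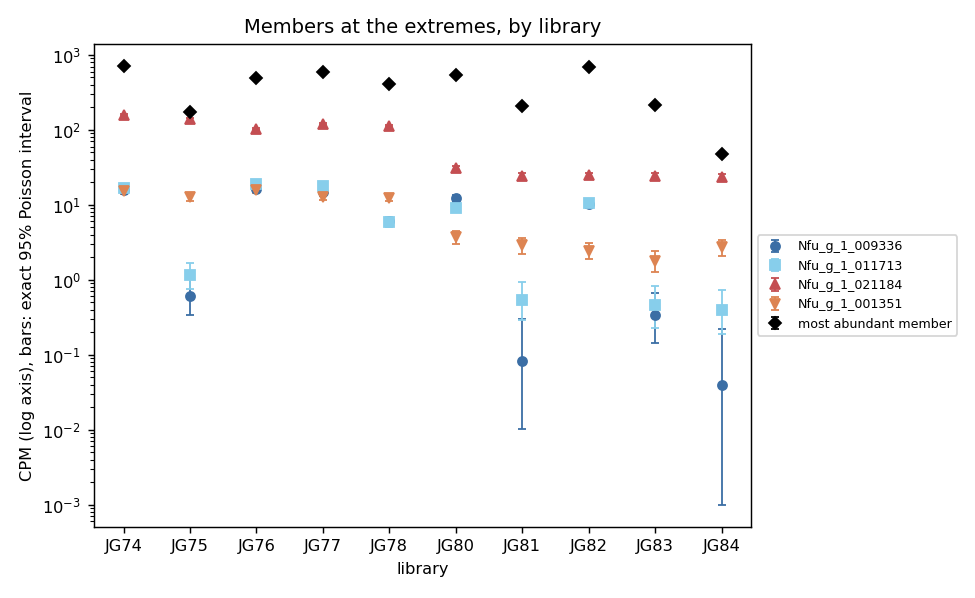
CPM by library (log axis) of the 2 deepest members, of the 2 members least like the rest and of the most abundant member, with exact 95% Poisson intervals as bars (counting error only). The deepest members are below 2 CPM in JG75, JG81, JG83 and JG84, while Nfu_g_1_021184 and Nfu_g_1_001351 step down between JG78 and JG80.

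Over the 10 libraries the shared profile held for nearly every member. The log2 CPM of a member over the 10 libraries was correlated with the mean profile of the other members at a median r of 0.987, above 0.95 in 177 members and under 0.9 in 5. Part of this comes from the choice of members, which fixes 3 low libraries in each. Over the 7 libraries other than JG81, JG83 and JG84, the median correlation between 2 members was 0.947 over 18145 pairs, and 220 pairs (1.21%) were negative. JG75 was the lowest of these 7 in 187 members, and the part of that 1 library in the correlation was not tested. No such correlation is given here for other genes, so the value has no background. In these 7 libraries 21 members had r under 0.9 with the mean profile of the others, a setting added after seeing the data. As a description of the values that chose the members, the highest and lowest of the 3 low ratios differed by less than 1.5-fold in 146 members, by more than 2-fold in 14 and by more than 3-fold in 6.

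Of the 5 members with r under 0.9 over the 10 libraries, 2 followed another pattern altogether. Nfu_g_1_021184, of 5443 bp and with r = 0.577, had 156 CPM in JG74, 138 in JG75, 103 in JG76, 121 in JG77 and 113 in JG78. It had 30.7 CPM in JG80, 24.5 in JG81, 25.0 in JG82, 24.5 in JG83 and 23.8 in JG84. The libraries JG74 to JG78 and JG80 to JG84 did not overlap for this gene, and JG75 was its second highest library. Nfu_g_1_001351, of 714 bp and with r = 0.632, had 15.4, 12.6, 15.7, 12.9 and 12.5 CPM in JG74 to JG78. In JG80 to JG84 it had 3.68, 2.87, 2.46, 1.77 and 2.72 CPM. These are the only 2 members with JG80 or JG82 at or below 0.5 times the median. Among the filtered genes 0.174% were that low in JG80 and 0.453% in JG82. The share of filtered genes with a step like theirs was not counted. Both members met the rule by a step between the lower and the higher title numbers. The labels name no difference between those 2 sets of libraries.

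The 3 others departed in a few libraries each. The first of them was at 1.03 times its median in JG75 and at 0.733 times in JG74, with JG76 at 1.92 times. The next is the most abundant member described above. The last, of 1050 bp, was highest in JG74 at 50.7 CPM and held 9.01 CPM in JG81, but 2.15 CPM in JG83, 2.36 in JG84 and 2.66 in JG75, so that JG81 lay above JG75.

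Members spread widely by the standards of this table. The range from the lowest to the highest library had a median of 6.15-fold over the members, against 1.42-fold over all filtered genes. It exceeded 10-fold in 51 members, while 176 filtered genes (1.23%) had such a range, so members are 29.0% of those genes. The choice of members for low values makes these ranges large, and they are given as a description.

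Whether the members also varied where no low value was asked for was tested in the 7 libraries other than JG81, JG83 and JG84. An edgeR model with a common mean was fitted to all genes of at least 1 CPM, and each gene's deviance was judged against the trended dispersion at its abundance, with Benjamini-Hochberg adjustment. Of the 191 members, 105 (55.0%) passed at an adjusted p under 0.05 (edgeR). The background was 854 of 17965 genes tested (4.75%), and 4.03% of the genes that passed the filters on level. The rule touches these 7 libraries through the median and the filters, so the test is not wholly apart from it. The biological coefficient of variation (BCV), edgeR's estimate of the spread beyond counting error, had a median of 0.334 in members and 0.126 in the filtered genes. The trend at the members' own abundance had a median of 0.191. BCV was above the trend in 185 members and in 14.5% of the filtered genes.

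JG75 carried much of that spread. Without it, 32 members (16.8%) passed, against 3.92% of all genes tested, and all 32 were among the 105. Without JG74, 143 members (74.9%) passed, against 4.03% of all genes tested. Leaving out any one of the other 5 libraries gave between 89 and 110 members (46.6% to 57.6%). The share of all genes tested was then 4.23% to 4.59%. DESeq2 marked 54 members (28.3%) as dispersion outliers in the same 7 libraries, where it marked 360 of all 17965 genes. Of the deepest part of the members 50 of 64 passed, of the middle part 40 of 63, and of the shallowest 15 of 64. These counts are a description. The parts were ordered by a ratio whose median draws on these 7 libraries, and deeper members were also lower in JG75. In this fit Nfu_g_1_009336 reached a BCV of 0.697 against 0.238 on the trend, and Nfu_g_1_021184 reached 0.541 against 0.125. Both values are descriptions. Nfu_g_1_009336 was picked for its depth below a median that draws on these 7 libraries. Nfu_g_1_021184 was picked for a profile whose step lies within them.

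**Figure D5:**
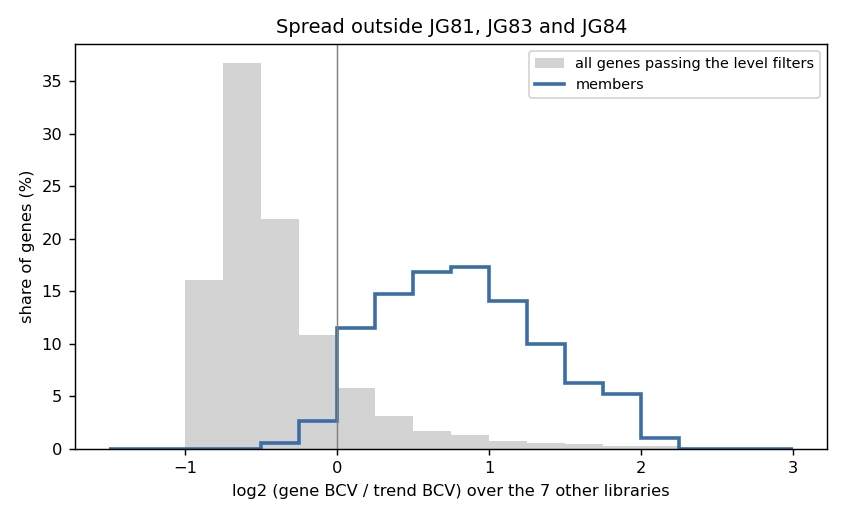
Share of genes (%) by the log2 ratio of a gene's BCV to the dispersion trend over the 7 libraries other than JG81, JG83 and JG84, for the members (blue line) and all filtered genes (grey). The line at 0 marks the trend, and values past 3 are counted in the last bin. Most filtered genes lie below the trend, with a median of -0.52, and most members above it, with a median of 0.79.

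The drop had no counterpart of the same size in the other direction. No gene of the 14350 (0%) was at 2 times its own median or more in all of JG81, JG83 and JG84. At a fold of 1.5 or more, 5 genes were higher in all 3 and 389 lower, the members among these. The rule asked for low values in these same libraries, so this imbalance is a description and not a test. With no requirement on size the directions were even: the 3 were the highest libraries in 1369 filtered genes and the lowest in 1352. The threshold lay on a slope without a gap: the highest of the 3 ratios was between 0.45 and 0.5 in 34 members and between 0.5 and 0.55 in 37 other filtered genes. Close to it, 3 members had 0.496, 0.498 and 0.498, and 3 genes outside had 0.502, 0.505 and 0.506.

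On several measures of whole libraries JG81, JG83 and JG84 lay at one end of the 10. For genes detected and the share of the 10 most abundant genes, the margin from JG75 was narrow. In the other libraries these measures followed the members to differing degrees. JG84, JG83 and JG81 had the fewest genes detected, 21612, 21614 and 21673, and JG75 followed with 21676, while JG76 had the most, 21908. JG77, with nearly the highest share of member counts, had 21711, the next number above JG75. Every member was counted in every library, so none contributes to that difference. The 10 most abundant genes, none of them a member, took 3.87% of counts in JG81, 3.97% in JG83, 3.67% in JG84 and 3.64% in JG75, and between 3.45% and 3.62% in the others. The slope of a library's log2 deviation on log2 gene length was lowest in JG83, JG81 and JG84, at -0.0270, -0.0252 and -0.0178 per doubling, and stayed at -0.0255, -0.0234 and -0.0163 with the members left out. The same slope was highest in JG77, JG76 and JG74, at 0.0244, 0.0194 and 0.0163. With the members left out these were 0.0231, 0.0181 and 0.0152. JG78, at 0.00653, and JG80, at 0.00435, came next. On this measure JG75, at -0.000619, was close to JG82, at -0.000342. The share of JG82 in the 10 most abundant genes, 3.62%, was close to that of JG75. The part of these measures in the members' levels was not tested. Total counts of JG81, JG83 and JG84 were 24072858, 23751478 and 25410273, inside the range of the other libraries.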

How the data were processed

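RNA of 10 brain libraries was measured. Per the submitters' processing notes, featureCounts 1.4.6-p4, STAR 2.4.1d and bcl2fastq 1.8.4 were used. Genome build, annotation and strand setting were not given in the sources used here. How reads of near-identical or overlapping genes were assigned is therefore unknown. The authors deposited 2 tables with 1 column per library, one of raw counts and one of RPKM. The deposited RPKM did not follow from each column's own total: over 9214 well counted genes the implied length varied by a median of 10.5%, and by 0.00150% once totals were cycled along rows and columns. They were used to recover gene lengths, and RPKM printed here were made from counts with own totals.

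Members and tests were chosen with earlier results of these data known. None of the 26739 identifiers was found in a RefSeq gene table of 38438 genes (assembly NfurGRZ-RIMD1, 0 matched), so lists of cell type markers fixed for named genes were not evaluated. By rule, 4 identifiers were printed: the 2 members whose highest ratio in JG81, JG83 and JG84 was lowest and the 2 with the lowest correlation to the mean profile of the others, from log2(CPM + 0.1).

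The variability test used edgeR 4.0.16 in R 4.3.3 with TMM scaling, an intercept, the trended dispersion and the upper tail of chi-square on 6 degrees of freedom. It was tested on simulated data. DESeq2 1.42.0 gave size factors and dispersion outliers. Other steps used Python 3.11.15, numpy 2.4.6, pandas 2.3.3 and scipy 1.17.1. Alternatives were other scalings, thresholds and filters and leaving out each library.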

Additional observations from a re-analysis of the deposited data

Results flagged for a closer look

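Among 19 measures over the 10 libraries, namely library measures and the log2 CPM of members at the extremes, 1 had a library far from the rest. It was the most abundant member, where JG84 lay below the next library by 0.483 of the whole range on the log2 scale, past the bound used for 10 samples. Chance flags about 1 in 20 such measures, and these members were picked for their values. The count in JG84 was 1205, against 4250 in JG75, the next lowest level.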

How the results depend on the processing

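The number of members, 191, stayed within 1.5-fold under TMM scaling (201) and DESeq2 size factors (201), both of which kept all 191, and under a mean of at least 10 CPM (130) or 1 CPM (275), a median over the 7 other libraries (273), no filter on zero counts (191) and no upper bound on level (191). It became 125 at a ratio of at most 0.4 and 290 at 0.6, by construction. With the deposited RPKM, a setting added after seeing the data, it was 217, of which 184 were members. Leaving out each library in turn gave 151 to 270 members and a median JG75 ratio of 0.471 to 0.568, against 0.515. The numbers 243, 250 and 270 came from leaving out JG81, JG83 and JG84, where fewer low libraries are asked for, by construction. Without any one of the others the number was 151 to 226. JG75 was next above the 3 lowest in 170 of 191 members, in 179 of 201 under TMM and in 179 of 201 under DESeq2 size factors. Members past the variability test numbered 105 and became 54 with DESeq2 dispersion outliers, a different criterion. Over all 17965 genes tested the number fell as well, from 854 to 360. The cause of the change was not tested. Members past the edgeR test ranged from 32 without JG75 to 143 without JG74, and were 105 or 106 under other scalings and filters. The 5 members with a profile correlation under 0.9 became 20 by Spearman correlation and 21 over the 7 other libraries, settings added after seeing the data. Both sets held the same 5, and the cause was not tested. No paired analysis was possible because the libraries form 1 group. Depth limits the levels of the 7 members with under 10 counts in a low library.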

Other observations

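The same low ratios in JG81, JG83 and JG84 occurred below the filters on level. A further 84 genes with a mean between 1 and 5 CPM, counted in every library, were at or below 0.5 times their median in all 3, and 123 more had a mean under 1 CPM or no counts in some library. At or above 1000 CPM there was none. At these lower levels counting error is larger, and the ratios of these genes were not described one by one. Their share of all genes at those levels was not computed, so the numbers have no background.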
